A study of Capsicum annuum and Solanum lycopersicum with 125 samples.

Results

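The scion of the tomato self-graft was followed while the junction healed. A self-graft of tomato (TT, tomato scion on tomato stock, var. M82) joins a shoot to a rootstock of the same variety, so the 2 pieces are a compatible match. The members were the 12 tomato libraries labelled as self-grafted scion, 4 from each of 3 days counted from grafting (7, 14 and 21 DAG), out of 125 libraries in the series. They were set beside the 13 libraries of ungrafted tomato stem of the same variety and days, 4 at 7 DAG, 5 at 14 DAG and 4 at 21 DAG. Per the study's methods, each sample was a short piece of stem next to the junction, and the ungrafted plants went through the same recovery procedure in the dark and under domes. The older, established grafts were cut apart with a razor blade while young ones were pulled apart by hand, so the way of separation and the day cannot be told apart in scions. Ungrafted stems needed no separation, and they aged by the same number of days. The domes were vented at 7 DAG and removed at 14 DAG, so age and growing conditions cannot be told apart between days.

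When a stem is cut and rejoined, cells at the wound divide to form callus, the faces adhere, and new xylem and phloem later bridge the junction. Wounded plant tissue draws on the hormones jasmonic acid, ethylene and salicylic acid, which also direct defence against insects and pathogens. Tomato and its relatives further defend themselves with steroidal glycoalkaloids, bitter nitrogen-containing compounds made from cholesterol by the GAME (GLYCOALKALOID METABOLISM) enzymes.

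Total counts ran from 952084 to 2505040 per scion library and from 1100645 to 2506444 per stem library. Of 34688 tomato genes, 12176 passed the filter on low counts. Scion libraries of the same day had correlations of log2 CPM (counts scaled to a common library size) of 0.718 to 0.858 on the first day, 0.853 to 0.918 on the middle day and 0.839 to 0.894 on the last. Scion replicate 3 of 7 DAG had the lowest total and stood apart from its group. A value of 0 was far more frequent than a value of 1, with 24837 zeros and 616 ones among the 304400 values of the tested genes. A 0 below, alone or as the end of a range, therefore means only that the gene was listed at 0. In 2944 genes at least 1 library was at 0 where the other libraries of its group predicted 20 counts or more, here called an isolated 0. Scion replicate 3 of 7 DAG held the most, 892, and stem replicate 3 of 7 DAG, stem replicates 4 and 5 of 14 DAG and stem replicate 5 of 21 DAG held 497 to 605, against 53 to 316 in the other 20. Nothing in the labels or the table paired the tomato identifiers with cell types, so the stem label could not be checked against marker genes. In these bulk samples, fewer cells of a type and less RNA per cell cannot be told apart.

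Expression in the scion changed broadly over the 2 weeks. From 7 to 21 DAG, 912 genes rose and 1030 fell of 12176 tested, 7.49% and 8.46%. A call here means an edgeR adjusted p under 0.05 and a log2 fold change beyond 1.5 in either direction. At the adjusted p alone, without the limit on fold change, 4443 genes passed. The first week, 7 to 14 DAG, held 589 calls (4.84% of genes), 372 rises and 217 falls (3.06% and 1.78%). The second week, 14 to 21 DAG, held 696 calls (5.72%), 198 rises and 498 falls (1.63% and 4.09%). Rises were 63.2% of the calls of the first week and 28.4% of those of the second. The excess of rises in the first week depended on the limit on fold change, since rises were 50.8% of the 2226 genes that passed without it, and 53.9% of calls when only the groups compared were fitted. In the second week rises were 40.5% without the limit. Without scion replicate 3 of 7 DAG the whole interval gave 1905 calls, 1707 of them among the 1942 of all libraries. Without the 5 libraries richest in isolated zeros it gave 2195, of which 1773 were shared.

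**Figure D1:**
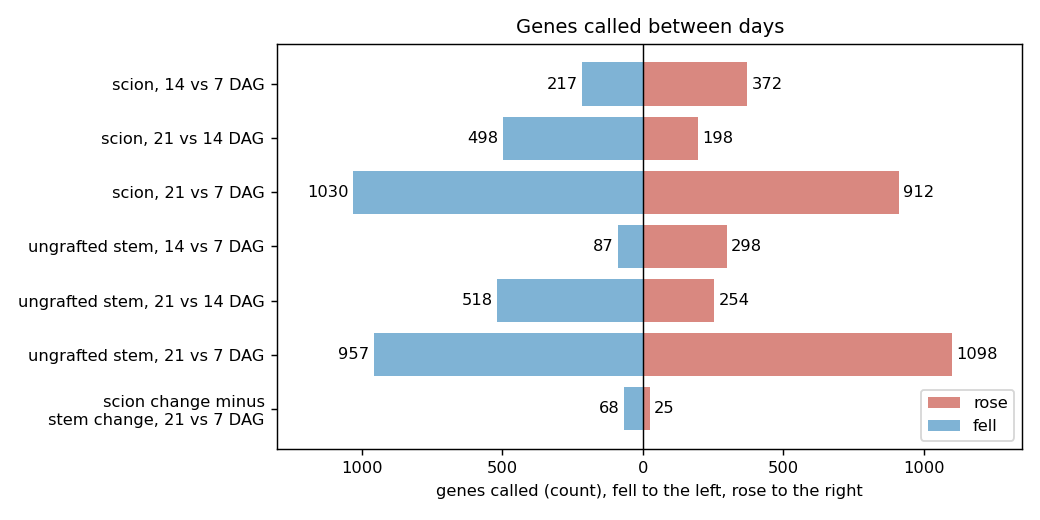
Genes called between days, as counts of genes, with falls drawn to the left and rises to the right of 0. In scions and stems alike the first week held more rises than falls and the second week more falls than rises, and the bottom bar shows the 25 genes with a more positive and the 68 with a more negative change in the scion than in the stem.

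The 14 DAG libraries stood between the other days for most of these genes. Among the 912 genes that rose, the fitted 14 DAG level had covered a median of 60.5% of the log2 distance from 7 to 21 DAG, and among the 1030 that fell a median of 39.2%. With the way divided into 3 equal parts, 301 rising genes had reached the last at 14 DAG and 96 were in the first. Of the falling genes, 155 had reached the last and 336 were in the first. The 14 DAG level lay beyond that of 7 DAG in 34 rising and 98 falling genes, and beyond that of 21 DAG in 71 and 21, all given without a test of the position. In the stems the medians were 57.7% for 1098 rising and 27.7% for 957 falling genes.

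Most of the scion's course was shared with stems that were never cut. Ungrafted stems had 2055 calls from 7 to 21 DAG, 1098 up and 957 down (9.02% and 7.86%). Their first week held 298 rises and 87 falls (2.45% and 0.715%, together 3.16%) and their second 254 and 518 (2.09% and 4.25%, together 6.34%). Scions and stems have separate libraries, but all entered the same fit, with a common normalization and estimate of spread. The calls of the tissues are therefore not independent. A set of 1173 genes was called in both tissues, 60.4% of the scion's calls and 57.1% of the stem's, against 16.9% of all genes called in stems. Of these, 512 rose in both, 646 fell in both, 11 fell in the scion and rose in the stem, and 4 did the opposite. Among the scion's calls, 95.7% had the same sign in stems, beside 80.4% of all genes tested. The genes that rose in scions had a median log2 change of 2.29 there and 1.86 in stems, and those that fell had medians of -2.45 and -2.10.

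**Figure D2:**
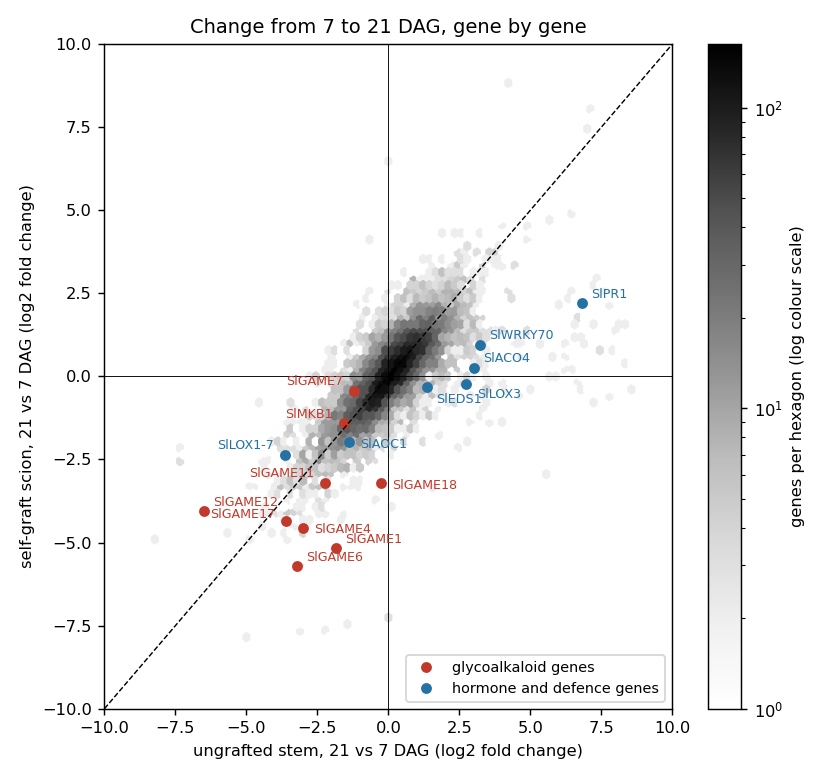
Log2 fold change from 7 to 21 DAG in ungrafted stems (horizontal axis) against self-graft scions (vertical axis), with darker hexagons holding more genes, a dashed line of equal change and named genes as points. The cloud follows the line, most glycoalkaloid genes sit far down in both tissues, and SlPR1, SlACO4, SlLOX3 and SlEDS1 sit below the line, while 21 genes lie outside the axes.

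The steroidal glycoalkaloid genes fell together. Of 9 genes, 7 fell in scions between 7 and 21 DAG and none rose (8.46% of all genes fell). The median log2 change of the 9 was -4.06, against 0.09 over all genes tested. The first week already held 7 falls (1.78% of all genes) and the second held 3 (4.09%), those of SlGAME6, SlGAME12 and SlGAME17. The 7 calls over the whole interval held in each single-library omission, whereas several calls of single weeks did not. In the first week SlGAME18 lost its call without scion replicate 3 of 7 DAG (log2 -1.78, adjusted p = 0.114) or replicates 1, 3 or 5 of 14 DAG, and SlGAME12 fell short of the fold limit without scion replicate 1 of 7 DAG (log2 -1.49). In the second week SlGAME6 lost its call without scion replicate 5 of 14 DAG (log2 -1.09, adjusted p = 0.119) or replicates 2, 3 or 5 of 21 DAG. SlGAME17 lost its own without scion replicates 2 or 5 of 14 DAG or 2 or 3 of 21 DAG (adjusted p from 0.0722 to 0.106), so only the second-week call of SlGAME12 held in each omission. In ungrafted stems 7 of the 9 also fell over the same days (7.86% of all genes), with a median of -2.22. The study singled out these genes by their expression in libraries that include these, so their counts are not independent evidence of direction. The same holds for HSR4 and for the oxidase, transcription factor and DNA repair genes below. The hormone genes below were chosen as homologues of Arabidopsis genes. By their identifiers, SlGAME11, SlGAME6, SlGAME17, SlGAME1 and SlGAME18 lie close together on chromosome 7, and SlGAME4 and SlGAME12 are neighbours on chromosome 12. Reads could be split between the neighbouring glycosyltransferase genes, so their separate values are uncertain.

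The early oxidation steps held the gene with the steepest fall of the 9. SlGAME6 (Solyc07g043460), a cytochrome P450 that oxidizes the cholesterol side chain, stood at 292, 264, 323 and 175 CPM in the scions of 7 DAG. It was at 6.78, 16.0, 9.13 and 27.5 CPM at 14 DAG and at 4.41, 4.64, 6.13 and 4.74 CPM at 21 DAG. No library of one day overlapped those of another (41.8% of all genes had no overlap between 7 and 21 DAG). The fall from 7 to 21 DAG was 52.3-fold (log2 -5.71 ± 0.46 SE, adjusted p = 1.2e-08), and 72.5% of the log2 distance was covered by 14 DAG. In stems SlGAME6 went from 136 to 245 CPM at 7 DAG to 9.73 to 36.5 CPM at 21 DAG, a log2 change of -3.22 ± 0.40 (adjusted p = 2.12e-06). All 4 scions of 21 DAG were therefore below all 4 stems of 21 DAG.

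SlGAME7, another cytochrome P450 of the first steps, did not follow. Its scion libraries held 21.6, 9.79, 6.71 and 18.0 CPM at 7 DAG and 12.1, 7.29, 9.81 and 12.6 CPM at 21 DAG, and the days overlapped (log2 -0.43 ± 0.41, adjusted p = 0.45). SlGAME11, a dioxygenase, held 1935, 1328, 853 and 1096 CPM at 7 DAG. By 21 DAG it held 142, 156, 61.9 and 206 CPM, a 9.20-fold fall without overlap (log2 -3.20 ± 0.41, adjusted p = 3.13e-06).

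The enzymes that turn the pathway towards alkaloids fell as well. SlGAME4, the cytochrome P450 at the branch between saponins and alkaloids, was at 74.7, 83.2, 51.8 and 53.9 CPM in scions of 7 DAG. At 21 DAG it was at 2.76, 3.31 and 4.74 CPM and was listed at 0 in the library of replicate 4 (log2 -4.56 ± 0.97, adjusted p = 0.000797). SlGAME12, the transaminase that brings in the nitrogen, was at 293, 184, 258 and 133 CPM at 7 DAG. It held 45.8, 92.5, 45.6 and 87.4 CPM at 14 DAG and 13.8, 10.6, 14.1 and 13.2 CPM at 21 DAG. Its fall had the smallest share of the 7 in the first week, with 41.3% of the log2 distance covered by 14 DAG (log2 -4.06 ± 0.46 over the whole interval, adjusted p = 6.65e-07). In stems of 21 DAG SlGAME12 was listed at 0 in 2 libraries and held 4.03 and 7.71 CPM in the others, so all 4 scions of that day were above all 4 stems (adjusted p = 0.0791 between them).

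The sugar-adding enzymes ended near the limit of detection. SlGAME1, the galactosyltransferase, held 8.76, 22.8, 7.67 and 12.4 CPM in scions of 7 DAG. Its 4 scion libraries of 21 DAG held 2 counts in all, against 96 counts at 7 DAG, a ratio of 45.9 with a 95% exact binomial interval of 12.4 to 385 that covers counting error only. SlGAME17, a glucosyltransferase, went from 32.5, 26.6, 55.6 and 22.2 CPM to 1.1, 0.663, 2.45 and 2.11 CPM (log2 -4.36 ± 0.54, adjusted p = 2.11e-06). SlGAME18, another glucosyltransferase, went from 10.8, 18.5, 45.0 and 8.98 CPM to 3.31, 1.33, 1.84 and 2.11 CPM (log2 -3.22 ± 0.80, adjusted p = 0.00293). Both were lower in every scion of 21 DAG than in any of 7 DAG.

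In stems SlGAME18 fell in the first week and rose in the second. There it was at 4.58 to 13.8 CPM at 7 DAG, at 0 to 3.44 CPM at 14 DAG (15 counts over 5 libraries) and at 6.30 to 12.7 CPM at 21 DAG. The stem value rose in the second week (log2 2.57 ± 0.73, adjusted p = 0.016) and ended above all 4 scions of 21 DAG. The difference between the scion's and the stem's change over the whole interval did not pass the test (log2 -2.96 ± 1.06, adjusted p = 0.194). SlMKB1, counted with this group and known in Medicago truncatula as a ubiquitin ligase that restrains triterpene saponin synthesis, held 6.71 to 21.6 CPM at 7 DAG and 3.86 to 6.63 CPM at 21 DAG in scions. Its libraries did not overlap, but the log2 change of -1.40 ± 0.42 (adjusted p = 0.0114) did not reach the limit on fold change. Without scion replicates 3 or 5 of 7 DAG or replicate 3 of 21 DAG it did, with values of -1.61, -1.57 and -1.56.

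Only 1 of the 9 genes passed the test that the scion's change differed from the stem's. For SlGAME6 the scion's change minus the stem's was -2.49 ± 0.57 on the log2 scale (adjusted p = 0.0359; 0.558% of all genes were called in this direction). Leaving out 1 library at a time gave differences from -2.72 to -2.08, and the adjusted p rose above 0.05 in 10 of 25 such fits. Without the 5 libraries richest in isolated zeros the difference was -1.85 (adjusted p = 0.14). SlGAME1 had a larger fitted difference, -3.32 ± 0.98 with an adjusted p of 0.103, and SlGAME12 one in the other direction, 2.43 ± 0.68 with an adjusted p of 0.0852. At 7 DAG none of the 9 was called between scion and stem (1.96% of all genes were), and 9 genes are too few to read against that share. At 21 DAG SlGAME6 was lower in scions (log2 -1.99 ± 0.45, adjusted p = 0.0352; 0.164% of all genes were lower). That call was lost without stem replicates 1 or 5 or any 1 scion library of 21 DAG (adjusted p from 0.0545 to 0.131), and in a fit of only the groups compared (adjusted p = 0.283).

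**Figure D3:**
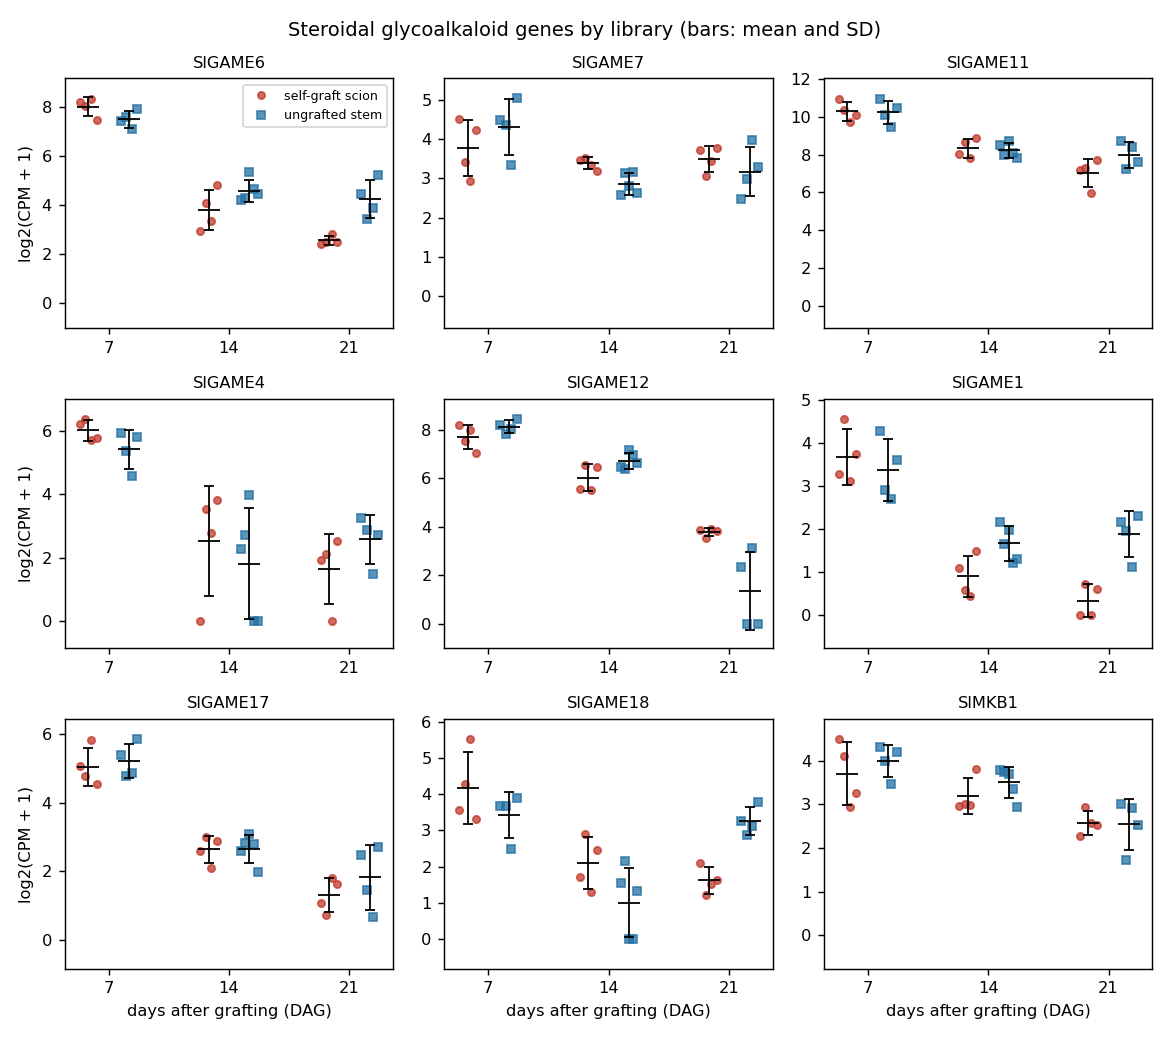
Level of the 9 glycoalkaloid genes as log2(CPM + 1) at 7, 14 and 21 DAG, each point 1 library of the self-graft scion (red circles) or the ungrafted stem (blue squares), with bars for the mean and SD of the group. SlGAME6, SlGAME11, SlGAME12 and SlGAME17 step down at both intervals in the scion, whereas SlGAME7 stays in an overlapping range.

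Salicylic acid genes gave 1 rise among 3 in scions from 7 to 21 DAG (7.49% of all genes rose). SlPR1 (Solyc01g106620), a pathogenesis-related protein used as a marker of salicylic acid signalling, held 78.8, 89.2, 75.7 and 477 CPM in scions of 7 DAG. It was at 52.0, 48.5, 131 and 27.0 CPM at 14 DAG and at 1166, 728, 880 and 562 CPM at 21 DAG. The last day lay above all earlier libraries (21 against 7 DAG, log2 2.2 ± 0.64, adjusted p = 0.00937; 21 against 14 DAG, log2 3.68 ± 0.68, adjusted p = 0.000834). Members of the PR1 family are near copies, and how reads were shared among them is not given in the sources used here.

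In stems SlPR1 began far lower and ended in an overlapping range. It held 6.71, 7.18, 2.75 and 4.31 CPM at 7 DAG, 17.3 to 78.5 CPM at 14 DAG and 276, 1419, 329 and 444 CPM at 21 DAG. The scions of 7 DAG were 32.9-fold above the stems (log2 5.04 ± 0.81, adjusted p = 0.00157; 1.71% of all genes were higher in scions). Without scion replicate 5, the library at 477 CPM, the log2 difference was 3.88 (adjusted p = 0.00571). At 21 DAG the log2 difference was 0.43 ± 0.61 (adjusted p = 0.923). The rise in scions was smaller than that in stems, with a log2 difference of -4.61 ± 1.01 (adjusted p = 0.0318), a call that 8 of 25 single-library omissions moved above 0.05, with values from -4.86 to -3.45. SlNPR1, the salicylic acid receptor and coactivator, held 3.81 to 10.3 CPM in scions of 7 DAG and 8.61 to 17.7 CPM at 21 DAG (log2 0.97 ± 0.77, adjusted p = 0.354). SlSARD1-2, a regulator of salicylic acid synthesis, was listed at 0 in 1 scion library of each day, with values up to 43.5 CPM elsewhere, and gave no call.

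The genes grouped here under jasmonic acid moved in both directions. Lipoxygenases begin jasmonic acid synthesis or related oxylipin branches, and allene oxide cyclase follows in the same chain. Of 4 genes, 1 rose and 2 fell in scions from 7 to 21 DAG, beside 7.49% and 8.46% of all genes. The rise was that of the lipoxygenase SlLOX1-8. Which branch SlLOX1-8 and SlLOX1-7 serve is not given in the sources used here, so the rise is not read as one of jasmonic acid synthesis. SlAOC1 (Solyc02g085730), the allene oxide cyclase, went from 86.6, 80.5, 60.4 and 112 CPM at 7 DAG to 16.0, 12.6, 32.5 and 24.7 CPM at 21 DAG. That was a 3.95-fold fall without overlap (log2 -1.98 ± 0.45, adjusted p = 0.00127). The change in stems, -1.38 ± 0.43 (adjusted p = 0.0158), was below the limit on fold change, and the difference between the tissues was -0.61 ± 0.61 (adjusted p = 0.817).

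The 2 lipoxygenases on chromosome 8 took opposite courses. SlLOX1-7 (Solyc08g014000) held 43.8, 17.9, 8.63 and 29.9 CPM in scions of 7 DAG and 4.41, 3.98, 4.29 and 6.85 CPM at 21 DAG (log2 -2.35 ± 0.80, adjusted p = 0.0251). The fall lost its call without scion replicate 1 of 7 DAG (log2 -1.94, adjusted p = 0.0822) and without scion replicates 2, 3 or 4 of 21 DAG (adjusted p = 0.0588, 0.0633 and 0.0551). In stems SlLOX1-7 also fell, from 17 to 55.3 CPM at 7 DAG to 0 to 6.52 CPM at 21 DAG (log2 -3.65 ± 0.87, adjusted p = 0.00233), and the difference between the tissues was 1.30 ± 1.14 (adjusted p = 0.759). SlLOX1-8 (Solyc08g029000) was listed at 0 in 2 scions of 7 DAG and held 3.83 and 10.3 CPM in the others, then 194, 51.7, 38.6 and 39.0 CPM at 21 DAG (adjusted p = 0.00621). At 14 DAG it was still listed at 0 in 2 scions, with 6.78 and 8.03 CPM in the others, so its rise lay in the second week (21 against 14 DAG, adjusted p = 0.0157, and 0.075 without scion replicate 2 of 21 DAG). The stems of 7 DAG listed SlLOX1-8 at 0 throughout and those of 21 DAG held 5.55 to 80.2 CPM. Both genes belong to a family of similar copies. SlLOX3, a lipoxygenase of the jasmonic acid branch, held 12.5 to 35.1 CPM in scions of 7 DAG and 9.28 to 30.1 CPM at 21 DAG (log2 -0.23 ± 0.81, adjusted p = 0.861), and its stem value rose (log2 2.74 ± 0.89, adjusted p = 0.0198), a call lost without stem replicates 2 or 5 of 7 DAG or replicate 2 of 21 DAG.

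Neither of the 2 ethylene genes was called in scions between 7 and 21 DAG (15.9% of all genes were called). SlACO4 (Solyc02g036350), an ACC oxidase that makes ethylene in its last step, held 49.5, 37, 53.7 and 33.8 CPM at 7 DAG. It was at 19.8, 12, 13.9 and 16.2 CPM at 14 DAG and at 58.5, 57.6, 38.0 and 52.7 CPM at 21 DAG. Every library of 14 DAG was below every library of the other days, but neither step passed the test (adjusted p = 0.0845 and 0.0513). In stems SlACO4 was listed at 0 in 2 libraries of 7 DAG, held 21.6 and 10.4 CPM in the others, and reached 53.9 to 81.5 CPM at 21 DAG. It was higher in scions than in stems at 7 DAG (log2 2.42 ± 0.64, adjusted p = 0.0342), and the call was lost without any 1 scion library of that day (adjusted p from 0.0527 to 0.0628) or without stem replicate 3 or 5 (0.0698 and 0.077). SlEIN2-4, a signal carrier downstream of the ethylene receptors, held 62.9 to 78.3 CPM in scions of 7 DAG and 104 to 185 CPM at 21 DAG (log2 0.98 ± 0.65, adjusted p = 0.265). It had isolated zeros in stem replicates 3 and 5 of 7 DAG.

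None of the 5 genes tied to the hypersensitive response, a local programmed cell death, was called in scions between 7 and 21 DAG (15.9% of all genes were), and 5 genes are too few to read against that share. EDS1, PAD4 and SAG101 are lipase-like partners that relay signals from immune receptors. SlEDS1 (Solyc06g071280) stayed level in scions, at 27.8, 33.7, 32.6 and 43.6 CPM at 7 DAG, 26.6, 29.5, 21.9 and 20.7 CPM at 14 DAG and 23.7, 20.5, 31.3 and 35.3 CPM at 21 DAG, and the days overlapped (log2 -0.31 ± 0.26, adjusted p = 0.373). The stems held 11.2, 11.1, 11.9 and 12.1 CPM at 7 DAG and 34.7, 38.4, 21.3 and 24.6 CPM at 21 DAG. The scions of 7 DAG were all above the stems (log2 1.57 ± 0.27, adjusted p = 0.00251), while at 21 DAG the log2 difference was -0.10 ± 0.26 (adjusted p = 0.979). Without scion replicate 5 of 7 DAG the early difference was 1.44, under the limit on fold change. The 2 changes differed by -1.68 ± 0.37 (adjusted p = 0.0336), and 9 of 25 single-library omissions moved the adjusted p above 0.05.

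SlSAG101b was above the stems in scions on each day without overlap. The share of all genes without overlap between scion and stem was not counted for any day. It held 34.5 to 60.3 CPM in scions and 8.63 to 20.9 CPM in stems at 7 DAG (log2 1.47 ± 0.30, adjusted p = 0.00756), just under the limit on fold change. At 14 DAG the difference was 0.96 ± 0.27 (adjusted p = 0.0343) and at 21 DAG 0.97 ± 0.29 (adjusted p = 0.118). SlPAD4 held 3.81 to 8.76 CPM in scions of 7 DAG and 11.1 to 19.0 CPM at 21 DAG without overlap (log2 1.17 ± 0.46, adjusted p = 0.0515). SlSAG101a and HSR4 overlapped between 7 and 21 DAG, at up to 13.4 and 23.2 CPM on those days. SlSAG101a and SlSAG101b are related copies.

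The respiratory burst oxidases make superoxide at the cell surface. SlRBOH1 held 2.58, 5.44, 6.71 and 7.70 CPM in scions of 7 DAG, 9.61, 21, 15 and 10.4 CPM at 14 DAG and 8.83, 8.61, 18.4 and 8.95 CPM at 21 DAG. Both later days lay above the first without a call (21 against 7 DAG, log2 0.99 ± 0.78, adjusted p = 0.355). At 14 DAG SlRBOH1 was above all 5 stems, which held 0 to 4.25 CPM (log2 2.58 ± 0.76, adjusted p = 0.046; 1.19% of all genes were higher in scions), and 17 of 25 single-library omissions moved the adjusted p above 0.05. SlRBOHF was too low for the filter. It peaked in scions of 14 DAG, at 7.35, 20, 13.5 and 9.01 CPM, above all scions of 7 DAG (4.89 to 7.27 CPM) and 21 DAG (0 to 4.21 CPM).

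Of the 2 transcription factors, neither was called between 7 and 21 DAG in scions (15.9% of all genes were), too few genes to read anything from. SlERF114, an ethylene response factor, kept its level at 12.5 to 19.6, 6.78 to 17.5 and 14.6 to 18.2 CPM at 7, 14 and 21 DAG. The stems held at most 3.44 CPM on any day and were listed at 0 in 7 of 13 libraries. SlERF114 was higher in scions at 7 DAG (log2 3.99 ± 0.98, adjusted p = 0.0242) and 14 DAG (log2 4.45 ± 0.93, adjusted p = 0.006), and at 21 DAG the same fit gave 3.21 ± 0.92 (adjusted p = 0.0968). The call of 7 DAG was lost without stem replicates 2, 3 or 5 or scion replicate 5 of that day. In all 3 days the scion and stem libraries did not overlap, and the share of all genes that did likewise was not counted. The study picked SlERF114 for being higher in heterografts than in ungrafted stems, so these stem libraries took part in its choice.

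SlWRKY70, a regulator between salicylic and jasmonic acid signalling, held 4.12, 5.44 and 45.8 CPM in scions of 7 DAG and was listed at 0 in replicate 3, the library with the lowest total. It reached 17.7, 18.6, 35.6 and 38.4 CPM at 21 DAG (log2 0.95 ± 0.90, adjusted p = 0.446). The high value was that of replicate 5, which also held the 477 CPM of SlPR1. Without that library SlWRKY70 rose (log2 2.99, adjusted p = 0.0173) and the rise of SlPR1 was 3.36 (adjusted p = 0.000272). SlWRKY70 rose in ungrafted stems as well (log2 3.24 ± 1.01, adjusted p = 0.0147), and with all libraries the difference of the changes was -2.29 ± 1.32 (adjusted p = 0.508).

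The DNA repair genes, homologues of the mammalian BRCA1 and BARD1 ubiquitin ligase partners, were low throughout. BARD1 held 9.27, 3.83 and 9.84 CPM and was listed at 0 in 1 scion of 7 DAG, and stood at 40.3, 27.2, 14.1 and 16.8 CPM at 21 DAG (log2 2.06, adjusted p = 0.114). Without the 5 libraries richest in isolated zeros it passed (log2 1.88, adjusted p = 0.0226). BRCA1-12 (Solyc12g041980) held at most 14.0 CPM in any scion and gave no call, and BRCA1-09 (Solyc09g066080), which did not pass the filter, was listed at 0 in 3 scions each of 7 and 21 DAG and in 1 of 14 DAG.

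**Figure D4:**
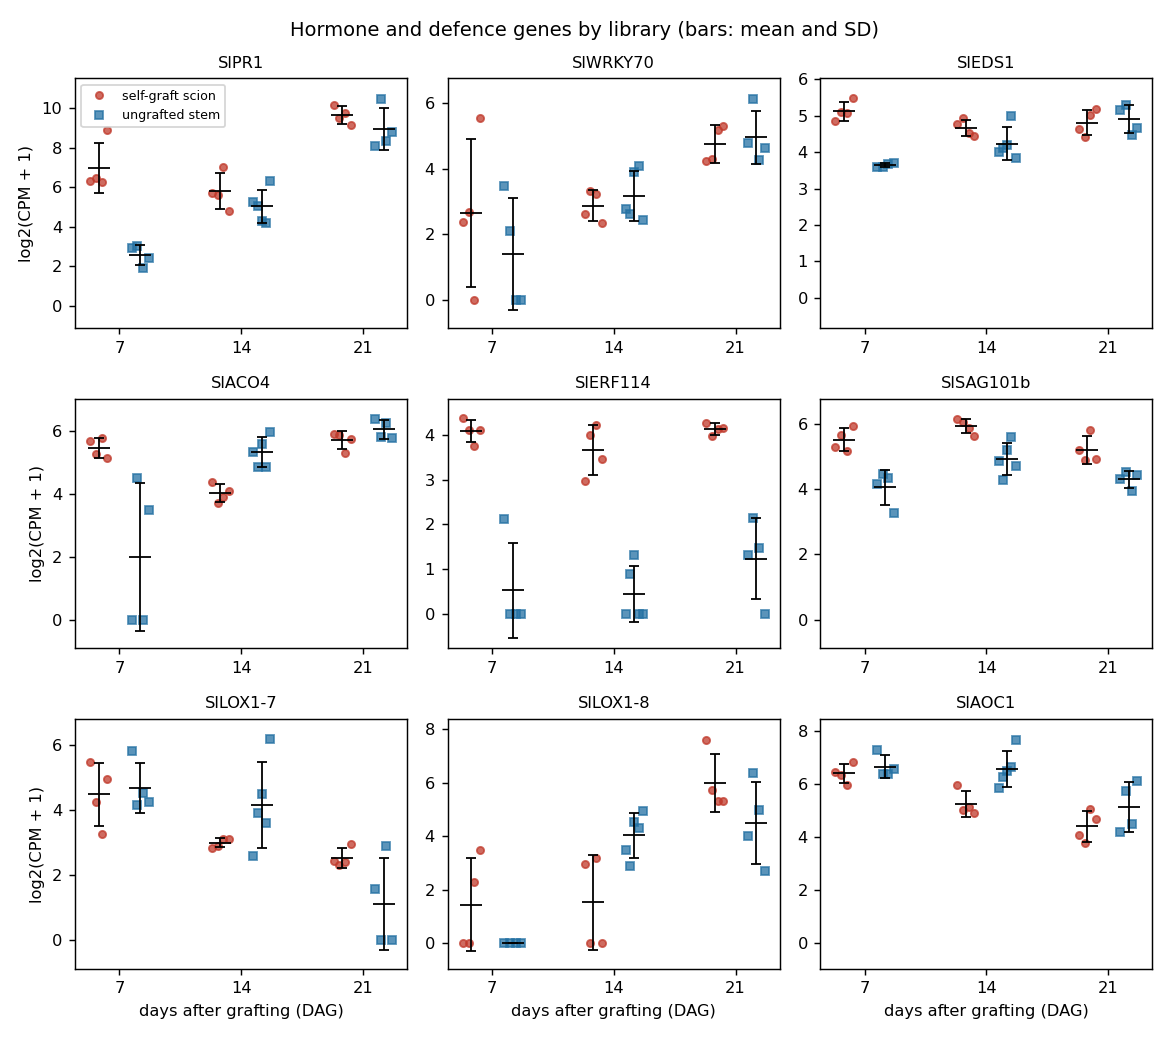
Level of 9 hormone and defence genes as log2(CPM + 1) by day, each point 1 library of the self-graft scion (red circles) or the ungrafted stem (blue squares), with bars for the mean and SD of the group. SlPR1 and SlEDS1 start higher in scions than in stems at 7 DAG and overlap with them at 21 DAG, SlERF114 stays above the stems, and SlACO4 dips at 14 DAG in scions.

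Few genes passed the test that the scion's change from 7 to 21 DAG differed from the stem's. It called 93 of 12176 genes, 25 with a more positive and 68 with a more negative change in scions (0.205% and 0.558%), and 1571 had an unadjusted p under 0.05. With DESeq2 the count was 301. A difference of changes is measured less precisely, with a median standard error of 0.64 against 0.45 for the scion's change. The low count therefore does not show that the changes of scions and stems were alike. The count of 93 ran from 43 without scion replicate 5 of 21 DAG to 159 without stem replicate 4 of 21 DAG. It was 48 and 58 without scion replicates 5 and 2 of 7 DAG, 51 and 61 without scion replicates 3 and 4 of 21 DAG, 60, 54 and 55 without stem replicates 2, 3 and 5 of 7 DAG, and 55 without stem replicate 2 of 21 DAG. Of the 68, 42 were called in stems and not in scions. All 42 rose in stems, with a median log2 change of 4.38, against -0.55 in scions, and 40 of them were also called higher in scions at 7 DAG. The 42 were chosen for a more negative change in scions and a call in stems only. Their rise in stems and the contrast of medians therefore follow from the choice. The difference of changes also contains the difference at 7 DAG, from the same libraries, so the order at 7 DAG is part of how the genes were chosen. SlPR1, which rose in both tissues, and SlEDS1, called in neither, had the same order at 7 DAG. Of the 42, 22 were listed at 0 in 3 or 4 of the 4 stem libraries of 7 DAG and 15 in none.

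A change in the scion that also differed from that of the stem was rarer. The 34 genes that were called in scions from 7 to 21 DAG and differed from stems in the same direction comprised 10 that rose and 24 that fell (0.0821% and 0.197%). The 24 had a median log2 change of -2.35 in scions and 0.81 in stems, and 9 of them rose in stems. Scions were above stems at 7 DAG for 23 of the 24, and below them at 21 DAG for all 24. For the 10 that rose the medians were 2.06 in scions and -0.04 in stems, and scions went from below stems at 7 DAG to above them at 21 DAG in each. Both crossings are a description, since the genes were chosen for a difference that shifts this way in the same libraries. The 34 include 2 pairs of rows whose counts differ by 0.635% and 1.02%, so they hold fewer separate genes. This count ran from 19 to 72 when 1 library was left out. The lowest, 19, came without scion replicate 3 or 5 of 21 DAG and the highest without stem replicate 4 of 21 DAG. It was 21 without scion replicate 2 or stem replicates 3 or 5 of 7 DAG and 22 without stem replicate 2 of 7 DAG.

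SlGAME6 was the only named gene among the 34. The others have no annotation in the sources used here, and 2 that fell and 2 that rose are given by identifier. Solyc03g083996 held 175, 136, 137 and 215 CPM in scions of 7 DAG, 50.9, 64.5, 65.4 and 92.4 CPM at 14 DAG and 10.5, 8.61, 17.2 and 17.4 CPM at 21 DAG. Its libraries stepped down from day to day without overlap (21 against 7 DAG, log2 -3.62 ± 0.40, adjusted p = 4.28e-07). The stems overlapped, with 99.3 to 174 CPM at 7 DAG and 32.5 to 121 CPM at 21 DAG (log2 -0.89 ± 0.35, adjusted p = 0.0521). Its difference of changes, -2.73 ± 0.52 (adjusted p = 0.0133), kept its call in all 25 single-library omissions and all 9 other settings, with adjusted p up to 0.0348.

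Solyc02g092950 fell in both tissues and further in scions. It went from 57.2, 57.1, 91.1 and 52.2 CPM at 7 DAG to 6.07, 3.31, 3.68 and 3.69 CPM at 21 DAG in scions (log2 -3.91 ± 0.28, adjusted p = 3.46e-09), and in stems from 55.9 to 73.3 CPM to 8.30 to 15.8 CPM. The difference of -1.53 ± 0.36 (adjusted p = 0.0396) was lost in 14 of 25 omissions. Solyc05g052030 rose from 7.73, 6.52, 9.58 and 5.56 CPM in scions of 7 DAG to 142, 172, 91.4 and 134 CPM at 21 DAG, an 18.6-fold rise without overlap (log2 4.22 ± 0.39, adjusted p = 5.62e-08). Stems rose from 14.7 to 19.0 CPM to 38.7 to 119 CPM, and the difference was 2.26 ± 0.51 (adjusted p = 0.035, lost in 11 of 25 omissions). Solyc02g084980 was listed at 0 in 2 scions of 7 DAG, at 2.06 and 6.52 CPM in the others, and at 0 in all 4 stems of 21 DAG, and held 8.83, 13.3, 23.3 and 20.5 CPM in scions of 21 DAG. Its difference was lost in 14 of 25 omissions.

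Fewer genes were called between scion and stem at 21 DAG than on the earlier days. At 7 DAG 208 genes were higher and 31 lower in scions, at 14 DAG 145 and 84 (1.19% and 0.69%), and at 21 DAG 28 and 20 (1.96%, 1.88% and 0.394% of genes in either direction). The stems of 7 DAG had the lowest median total of all groups, 1357894.5 counts against 1793295 in scions of that day. They also held the most zeros, 6473 against 4987 in those scions, among 48704 values each. What part this has in the calls was not tested. The order of the earlier days depended on the settings, with 435 genes at 7 DAG and 758 at 14 DAG without the fold limit, where 21 DAG had 106. The direction did too. Genes higher in scions were 87.0%, 63.3% and 58.3% of the calls at 7, 14 and 21 DAG, and 64.8%, 44.2% and 38.7% without the fold limit, so most genes that passed at 14 and 21 DAG were then lower in scions. The median absolute log2 difference over all genes moved little, at 0.33, 0.36 and 0.33. The count of 7 DAG was between 143 and 156 without scion replicate 5 or stem replicates 2, 3 or 5 of that day. That of 14 DAG was 132, 152 and 150 without scion replicates 2, 3 and 5 of that day. At 21 DAG it was 12 and 18 without scion replicates 2 and 3, 23 and 18 without stem replicates 1 and 5, and 85 without stem replicate 4.

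The genes called higher in scions at 7 DAG were followed in the later libraries. Their levels at 14 and 21 DAG were not used to choose them, but all 25 libraries shared the estimate of spread behind the calls, and with only the groups compared 80 genes were called at 7 DAG in place of 239. Their median difference was 3.91 on the log2 scale at 7 DAG, the day that chose them, 0.91 at 14 DAG and 0.03 at 21 DAG. Of the 208, 36 were again called higher at 14 DAG and 3 at 21 DAG, 17.3% and 1.44% of them, beside 1.19% and 0.23% of all genes. Their median rose in the second week by 0.44 within scions and by 1.28 within stems, while the first week shares the 7 DAG libraries that chose the genes and is not read. The 4 stem libraries of 7 DAG all listed 48 of the 208 at 0, and 3 of the 4 did so for another 44. Their log2 differences are no measure of size. With those at 0 in fewer stem libraries, 137 of the 208 were listed at 0 at least once. In the other 71 the medians were 2.49, 0.20 and 0.01 over the 3 days, and 11 were again called at 14 DAG. What part the zeros have in the 208 was not tested beyond this division.

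**Figure D5:**
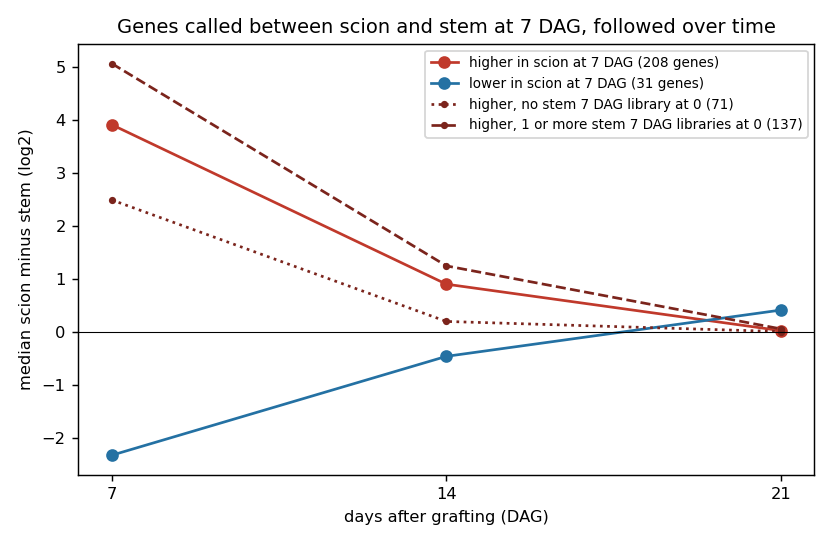
Median log2 difference of self-graft scion minus ungrafted stem at 7, 14 and 21 DAG for the genes called between them at 7 DAG, with the 208 higher genes also divided by whether a stem library of 7 DAG listed them at 0. The 7 DAG value is the one that chose the genes, and the medians of 14 and 21 DAG are levels of other libraries, fitted with a shared estimate of spread, and lie nearer to 0.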

How the data were processed

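Libraries for 3′ sequencing (Lexogen QuantSeq FWD) were made from stem pieces of separate plants, 5 per group, and the study's methods state that samples with low read counts were removed as outliers. Per the study's methods, the authors checked reads with FastQC 0.12.1, trimmed adaptors and poly(A) tails, aligned them to the ITAG tomato models with STAR 2.7.10b, sorted them with SAMtools 1.18 and assembled them with StringTie. The deposited values are the authors' raw counts per gene, not normalized, and whether counting used strand is not given in the sources used here. StringTie derives counts from coverage, and whether that bears on the excess of zeros was not tested.

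Genes with a mean of 10 counts or more and 0 in fewer than 75% of the 61 tomato libraries were kept. The 25 libraries were fitted with 6 group means in edgeR 4.0.16 (R 4.3.3), with TMM normalization, the quasi-likelihood test and Benjamini-Hochberg adjustment over all 12176 genes. CPM values use TMM-scaled totals, and standard errors are the absolute log2 fold change divided by the square root of F, an approximation. DESeq2 1.42.0, the tool of the study, other filters and normalizations, thinned counts, a replicate block, smaller fits and single-library omissions were alternatives, and 2 more on zeros were chosen after seeing the data. The procedure was tested on simulated data in which only genes above the median level changed and no isolated zeros were added. How it handles such zeros was therefore not tested there. P-values weigh differences of group means against the spread between plants of this series, and spread between experiments is not covered.

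The comparisons and gene lists were chosen with earlier results of these data known. The rule for named genes asked for the genes with the largest change among those called in scions and different from stems, with an annotation, and for members of pathway and marker lists. The reference table given holds pepper genes and matched no tomato identifier, so the annotation part and the lists could not be applied. The named genes are therefore the 30 that the study pairs with identifiers, 28 of which passed the filter, and the 2 largest falls and rises of the rule without annotation. Near copies and neighbouring genes may share reads. No sequences are shown.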

Additional observations from a re-analysis of the deposited data

Results flagged for a closer look

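Within scion groups of 4 libraries, 16 of 102 gene and group sets held 1 library that stood apart. Its gap to the nearest other, divided by the group's range, exceeded Dixon's 95% critical value. That value is made for normally distributed data, which CPM with many zeros are not, so the share that chance gives is not known here. At 7 DAG the flagged values were SlPR1 at 477 CPM and SlWRKY70 at 45.8 CPM, both in replicate 5, Solyc02g092950 at 91.1 CPM and BRCA1-12 at 0 CPM in replicate 3, and BRCA1-09 at 2.17 CPM in replicate 2. At 14 DAG they were SlLOX3 at 98.9 CPM, SlAOC1 at 61.6 CPM and Solyc05g052030 at 57.7 CPM, all in replicate 1, SlMKB1 at 13.1 CPM in replicate 5 and BRCA1-09 at 0 CPM in replicate 3. At 21 DAG they were SlLOX1-8 at 194 CPM and Solyc02g092950 at 6.07 CPM in replicate 2, BRCA1-09 at 11.3 CPM in replicate 3, SlPAD4 at 19.0 CPM and SlRBOH1 at 18.4 CPM in replicate 4, and SlLOX1-7 at 6.85 CPM in replicate 5.

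The change from 7 to 21 DAG differed between scion and stem, by the test of the difference itself, for 7 of the named genes. The log2 differences were -4.61 for SlPR1, -1.68 for SlEDS1, -2.49 for SlGAME6, -1.53 for Solyc02g092950, -2.73 for Solyc03g083996, 2.26 for Solyc05g052030 and 8.48 for Solyc02g084980. The last rests on stems of 21 DAG listed at 0 and is no measure of size. The genes given only by identifier were named because they passed this test, so their outcome was fixed in advance. Of the 28 genes of the study that were tested, SlPR1, SlEDS1 and SlGAME6 passed, beside 0.764% of all genes called.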

How the results depend on the processing

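Counts of calls between days in scions, and in stems of 21 against 7 DAG, stayed within 1.5 times under every alternative run but the removal of the fold limit (the single weeks of stems were run under none), which gave 4443 (21 against 7 DAG), 2226 (14 against 7) and 1722 (21 against 14) in scions and 4459 in stems, and 57 for scion changes that also differed from stems, 435 at 7 DAG, 758 at 14 DAG and 106 at 21 DAG between scion and stem. The 93 differences of changes became 301 with DESeq2, 59 with no filter, 32 with 7 and 21 DAG alone, 165 without genes with an isolated 0 and 147 without the 5 libraries richest in them, and the 34 scion changes that differed from stems became 121, with 39.7% rising, under DESeq2, 12 with 7 and 21 DAG alone, of which 8.33% rose, and 77 without isolated-0 genes. Rises were 17.4% of the 34's counterpart without a filter and 18.5% with thinned counts. Between scion and stem, DESeq2 gave 444 at 7 DAG and 125 at 21 DAG, and fits of only the groups compared gave 80 and 3. The cause of these shifts was not tested.

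Leaving out 1 library gave 1646 to 1997 calls for scions of 21 against 7 DAG, 475 to 644 for 14 against 7, 492 to 765 for 21 against 14, 1768 to 2233 for stems, 43 to 159 for differences of changes, 19 to 72 for scion changes that differed from stems, and 143 to 305, 132 to 270 and 12 to 85 between scion and stem at 7, 14 and 21 DAG. Of 68 calls of named genes, 40 held in every omission and 36 under every alternative, and of 2885 values none changed sign past a threshold, 255 lost a call and 6 gained one.

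Most samples of the same replicate number were not alike: 6 of 53 same-numbered pairs had a correlation of deviations over 0.1 (range -0.255 to 0.29). Stem replicate 1 was among the 6 between 7 and 14 DAG (0.29), 7 and 21 DAG (0.143) and 14 and 21 DAG (0.173). No differently numbered pairs are given for comparison, so whether replicate numbers pair the samples is not settled. With the number as a replicate block the counts were 1706, 518 and 539 in scions, 30 for differences of changes, 13 for scion changes that differed from stems, and 178, 178 and 15 between scion and stem by day.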
